A study of Mus musculus with 30 samples.

Results

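The mitotic cell cycle genes described here are 40 genes whose products drive a cell through mitosis. They were taken by name and matched through their gene symbols to the Ensembl identifiers of the count tables. All 40 were among the 54532 genes listed for both tissues, and all 40 had at least 1 count in PBMC and in platelets. The samples were blood of female C57BL/6 mice, 6 to 8 weeks old when the experiment began and bled 14 days after an injection under the skin of the flank. C group (ctrl in the labels) received Hanks' balanced saline (HBSS) alone. S group (early tumor) received a suboptimal number of 2000 B16F10 cells, a mouse melanoma line, and O group (large tumor) received 100000 B16F10 cells. By the paper, S group mice had no visible tumor when bled, and their pools included mice that might never form one. RNA of platelets and of peripheral blood mononuclear cells (PBMC) was sequenced as 5 libraries for each group and tissue, 30 in all. Each library held RNA pooled from 3 to 10 mice by the labels (the methods give other sizes for some platelet S group pools), so P values measure only the spread between pools. The O group pools held 3, 4, 5, 3 and 5 mice in both tissues. In platelets the S group pools held 10 mice each and the C group pools 10, 5, 5, 10 and 10. PBMC pools of C and S groups held 4 or 5. Inoculum and pool size therefore cannot be told apart for platelet S group against O group, and the part of pool size was not tested. Libraries are named here by group and replicate number, so that O1 is replicate 1 of O group.

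Mitosis is started by the kinase Cdk1 once it is joined by an A or B type cyclin. Polo-like and Aurora kinases then build the spindle, kinetochore proteins hold chromosomes to it, the spindle checkpoint delays separation, and the anaphase-promoting complex (APC/C) ends mitosis by marking cyclins for destruction. Platelets have no nucleus and do not divide, and most blood mononuclear cells are resting. Nucleated red cell precursors divide several times before they lose the nucleus, and young red cells still carry some of their RNA.

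Levels below are in CPM, the usual scaling of read counts to library size, with TMM factors computed within each tissue. Groups were compared with the quasi-likelihood test of edgeR on the counts, 1 pair of groups at a time. Genes with an unadjusted P under 0.05, the threshold of the study's methods, are said to pass, and each change is given as log2 fold change ± SE with its Benjamini-Hochberg adjusted P over all genes tested. By edgeR, 0 mitotic genes had an adjusted P under 0.05 in any of the 6 comparisons of groups, whereas 3 to 18 passed at the unadjusted P. By DESeq2, 2 mitotic genes had an adjusted P under 0.05 in PBMC for O group against C group, 2 in PBMC and 2 in platelets for S group against O group, and 0 in the other 3 comparisons. These DESeq2 counts are given without the share of all genes at that threshold and are not read as an excess. Without scaling factors, the median log2 fold change of all genes moved to -0.37 for O group against C group in PBMC and to 0.36 for S group against O group, and in platelets to 0.20, 0.081 and 0.12 for S group against C group, S group against O group and O group against C group.

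The libraries held 12259036 to 25360080 counts in platelets and 13390983 to 15973449 in PBMC. The summed level of 8 platelet and megakaryocyte markers was 8036 to 46005 CPM in platelets and 704 to 10042 CPM in PBMC, with PBMC O1 and O4 at the top. The 7 T cell markers summed to 101 to 249 CPM in platelets and 620.0 to 1182 CPM in PBMC, each scaled within its tissue. PBMC S3 had counts on 32900 genes, against 20540 to 22991 in the other PBMC libraries. O1 had the lowest TMM factor in both tissues, 0.551 in PBMC and 0.553 in platelets. The next lowest were O4 at 0.761 in PBMC and C1 at 0.665 in platelets, where O5 was highest at 1.65. Counts of genes and the leading genes that rest on O1 are given with and without it. By the methods PBMC came from the blood left after platelet isolation, and O group pools held equal numbers of mice in both tissues, but whether O1 of both tissues held the same mice is not given in the sources used here. In bulk samples, fewer cells of a type and less RNA per cell cannot be told apart.

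The start regions of 5 of the genes are printed because these genes carried the pattern described below: Ube2c, Mki67 and Ccnb2 were high in O1 of both tissues, Nusap1 followed Ube2c, and Top2a was not high in PBMC O1. Each window runs from 250 bases before to 50 after the gene's start in RefSeq on GRCm38.p6, read along the gene's strand. Capitals mark CCAAT (or ATTGG on the other strand) and the cell cycle homology region, CHR, searched as TTTGAA or TTCGAA on both strands. Both are known in promoters of mitotic genes, where they are bound by NF-Y and by complexes of the DREAM and B-Myb family. Matches can share letters, as CCAAT and ATTGG do in Ube2c.

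Ube2c, chr2:164769679-164769978, plus strand: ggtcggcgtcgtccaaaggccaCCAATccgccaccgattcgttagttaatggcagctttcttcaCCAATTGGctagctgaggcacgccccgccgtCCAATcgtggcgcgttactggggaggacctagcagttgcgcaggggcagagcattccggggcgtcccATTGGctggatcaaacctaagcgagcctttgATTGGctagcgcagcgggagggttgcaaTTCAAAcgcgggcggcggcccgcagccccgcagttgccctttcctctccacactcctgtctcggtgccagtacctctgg
Mki67, chr7:135716330-135716629, minus strand: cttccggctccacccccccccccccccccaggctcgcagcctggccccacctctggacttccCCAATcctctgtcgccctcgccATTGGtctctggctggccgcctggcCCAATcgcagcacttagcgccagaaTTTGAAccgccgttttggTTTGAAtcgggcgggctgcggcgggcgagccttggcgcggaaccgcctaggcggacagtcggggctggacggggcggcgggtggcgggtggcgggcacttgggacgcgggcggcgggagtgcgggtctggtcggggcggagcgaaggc
Ccnb2, chr9:70421505-70421804, minus strand: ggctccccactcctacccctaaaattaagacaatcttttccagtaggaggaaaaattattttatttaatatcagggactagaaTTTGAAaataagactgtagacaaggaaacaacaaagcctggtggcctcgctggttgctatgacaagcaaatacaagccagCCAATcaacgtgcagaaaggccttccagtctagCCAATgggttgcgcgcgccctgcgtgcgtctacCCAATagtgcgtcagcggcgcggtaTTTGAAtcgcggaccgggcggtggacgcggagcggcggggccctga
Top2a, chr11:99024140-99024439, minus strand: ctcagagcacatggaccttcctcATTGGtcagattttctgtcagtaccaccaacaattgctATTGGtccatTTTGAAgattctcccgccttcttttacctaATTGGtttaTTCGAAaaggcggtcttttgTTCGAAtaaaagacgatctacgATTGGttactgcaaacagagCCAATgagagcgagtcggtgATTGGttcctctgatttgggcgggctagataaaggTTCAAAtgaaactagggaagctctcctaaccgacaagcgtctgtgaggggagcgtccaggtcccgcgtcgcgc
Nusap1, chr2:119618048-119618347, plus strand: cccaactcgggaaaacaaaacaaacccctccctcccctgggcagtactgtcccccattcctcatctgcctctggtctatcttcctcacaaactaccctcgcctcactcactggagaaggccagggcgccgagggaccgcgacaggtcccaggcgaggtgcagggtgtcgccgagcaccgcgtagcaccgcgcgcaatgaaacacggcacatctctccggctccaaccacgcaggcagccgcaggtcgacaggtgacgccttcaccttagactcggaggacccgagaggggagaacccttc

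The Top2a window held 4 CHR and 6 CCAAT matches, that of Ube2c 1 and 6, and those of Mki67 and Ccnb2 2 and 3 each. The Nusap1 window held none of these letters. Of the 40 genes, 35 had a window, and Ccna2, Aurkb, Kif20a, Tpx2 and Pbk had none. A CHR match lay in 26 of the 35 windows (74.3%), against 19.4% of the 27018 windows of all genes. A CCAAT match lay in 26 of 35 (74.3%, all genes 37.9%), and 23 of 35 windows held both (65.7%, all genes 7.7%). A match of letters is a description and not a site shown to be bound.

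The summed level of the 40 genes was highest in O1 of both tissues. In PBMC the sums were 247, 316, 317, 331 and 303 CPM in C1 to C5, 276, 309, 362, 348 and 290.2 CPM in S1 to S5, and 2245, 398, 357, 846 and 274 CPM in O1 to O5. O1 and O4 lay above every other PBMC library, O2 lay just above C and S groups, and O3 and O5 lay within their range. In platelets the sums were 356, 141, 173, 273 and 326 CPM in C group, 181, 218, 188, 172 and 226 CPM in S group, and 2040.4, 159.8, 220.1, 197 and 166 CPM in O group. Only O1 lay above all others there, and without it O group (160 to 220 CPM) lay within the range of C group. Mki67, Ube2c and Nusap1 together made up 76.2% of the mitotic gene counts in PBMC O1 and 67.2% in platelet O1, but also 74.8% in platelet C1.

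**Figure D1:**
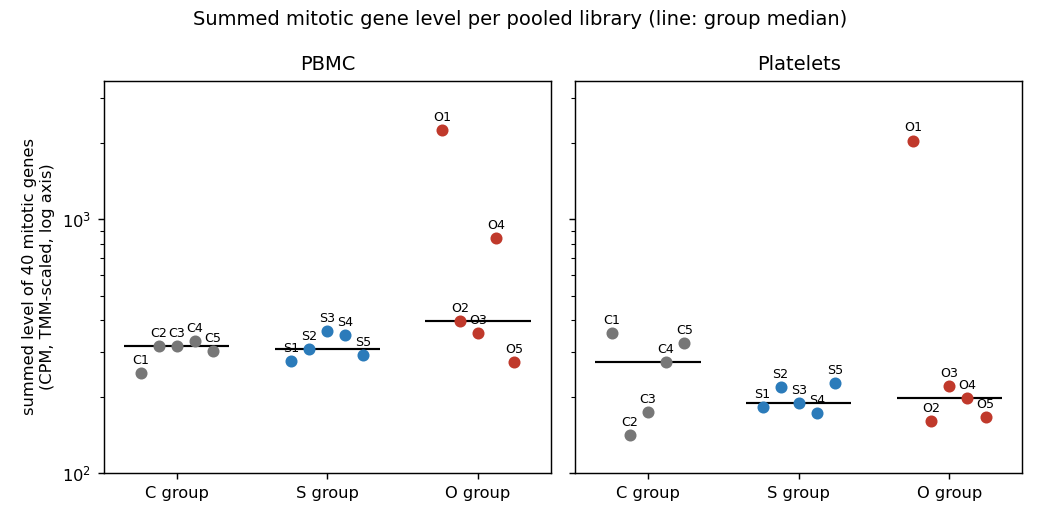
Summed level of the 40 mitotic genes (CPM, TMM-scaled within a tissue, log axis) in each pooled library of C, S and O groups, with PBMC on the left and platelets on the right and a line at each group's median. O1 stands at 2245 CPM in PBMC and 2040 CPM in platelets, and O4 at 846 CPM in PBMC.

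O1 was the highest of the 15 libraries for 22 of the 40 genes in PBMC and for 38 of 40 in platelets. Among all genes tested, O1 was the highest library for 22.6% in PBMC and 21.1% in platelets. Its level was more than 10 times the median of the other 14 libraries for 8 of the 40 genes in PBMC and for 11 in platelets. O1 lay below that median for 9 genes in PBMC and for 0 in platelets. PBMC O4 exceeded the median of the other 14 more than 2 times for 12 genes and lay below it for 11. The share of all genes past these cuts was not counted. In platelets the exceptions to O1 as the highest library were Ttk, highest in C4 at 1.46 CPM, and Racgap1, highest in O2 at 19.03 CPM.

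**Figure D2:**
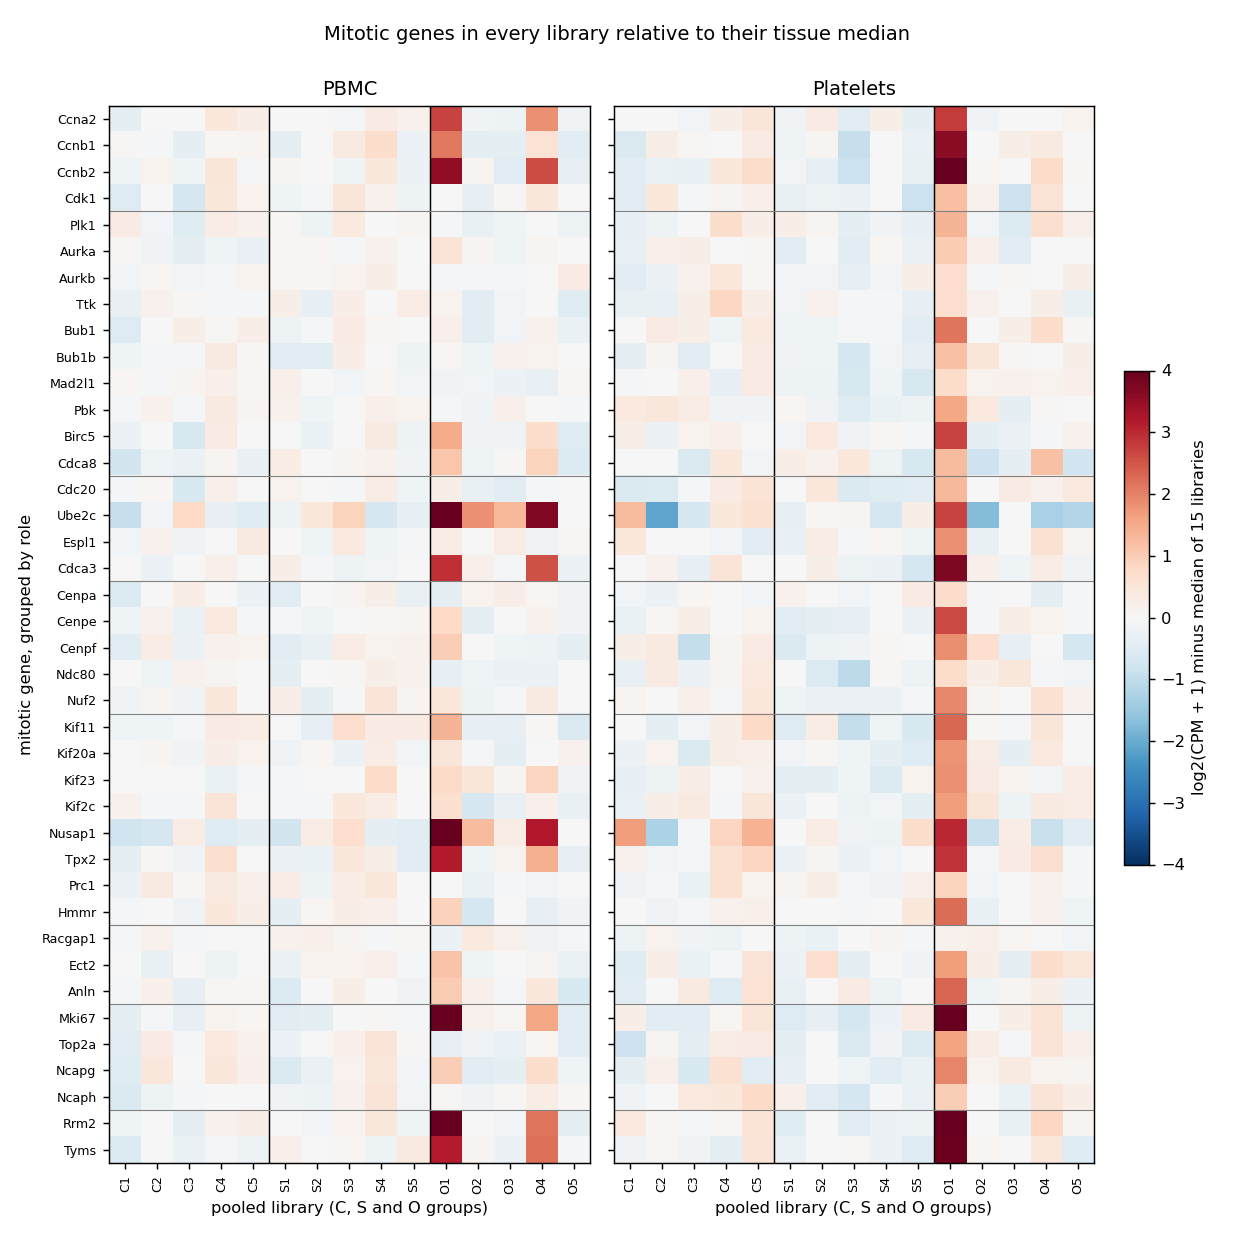
Level of each mitotic gene in each library as log2(CPM + 1) minus the median of the 15 libraries of its tissue, with genes in rows grouped by role and libraries in columns by C, S and O groups. The O1 column is red for nearly all genes in platelets, where it is highest for 38 of 40, and for fewer in PBMC, where it is highest for 22 of 40.

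The cyclins and Cdk1 form the engine of mitosis. Ccnb2, a B type cyclin, was at 2.72, 3.603, 2.68, 4.77 and 3.01 CPM in PBMC C1 to C5, at 3.52, 3.16, 2.69, 4.54 and 2.54 CPM in S1 to S5 and at 47.2, 3.52, 2.12, 24.3 and 2.28 CPM in O1 to O5. In platelets it was at 1.72, 2.05, 1.99, 3.97 and 5.03 CPM in C group, 2.44, 1.955, 1.03, 2.73 and 1.98 CPM in S group and 95.9, 2.87, 2.69, 5.19 and 2.78 CPM in O group. PBMC O1 and O4 and platelet O1 therefore stood apart, and the remaining libraries of the 3 groups overlapped. Ccna2, the A type cyclin of S phase and early mitosis, was at 1.11, 1.74, 1.81, 2.72 and 2.303 CPM in PBMC C group, 1.76, 1.74, 1.68, 2.498 and 2.099 CPM in S group and 17.1, 1.51, 1.42, 8.81 and 1.52 CPM in O group. The platelet values of Ccna2 were 2.67, 2.65, 2.38, 3.31 and 4.13 CPM in C group, 2.33, 3.56, 1.69, 3.31 and 1.82 CPM in S group and 24.3, 2.31, 2.61, 2.67 and 3.09 CPM in O group. It showed the same pair of high PBMC libraries and the same single high platelet library. Ccnb1, the main B type cyclin, stood at 1.17, 1.02, 0.604, 1.21 and 1.24 CPM in PBMC C group, 0.625, 1.096, 1.68, 2.44 and 0.773 CPM in S group and 8.01, 0.586, 0.629, 2.15 and 0.571 CPM in O group. Platelet Ccnb1 was 0.356, 1.37, 1.12, 0.993 and 1.55 CPM in C group, 0.796, 1.19, 0.0734, 1.03 and 0.676 CPM in S group and 24.1, 1.01, 1.42, 1.61 and 1.01 CPM in O group. O1 was again the highest library in both tissues, and PBMC O4 lay below S4. Cdk1, their kinase partner, was at 0.833, 1.62, 0.671, 2.599 and 1.89 CPM in PBMC C group, 1.36, 1.55, 2.69, 1.99 and 1.33 CPM in S group and 1.68, 1.09, 1.73, 2.55 and 1.65 CPM in O group. For platelets the Cdk1 values were 0.711, 2.05, 1.21, 1.46 and 1.61 CPM in C group, 0.849, 0.978, 0.955, 1.28 and 0.260 CPM in S group and 4.2999, 1.58, 0.299, 2.37 and 1.28 CPM in O group. Cdk1 was therefore highest in platelet O1 but not in PBMC O1, which 6 other PBMC libraries exceeded.

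Of the mitotic kinases and checkpoint genes, Plk1, the polo-like kinase, was at 2.83, 1.86, 1.21, 2.78 and 2.48 CPM in PBMC C group, 2.16, 1.68, 3.02, 2.1004 and 2.32 CPM in S group and 1.94, 1.51, 1.73, 2.06 and 1.65 CPM in O group. Its platelet values were 0.770, 0.940, 1.21, 2.58 and 1.68 CPM in C group, 1.59, 1.397, 0.734, 0.993 and 0.780 CPM in S group and 4.703, 1.07, 0.523, 2.47 and 1.53 CPM in O group. PBMC O1 lay inside the range of the other PBMC libraries, and platelet O1 above all other platelet libraries. Birc5 (survivin), which with Aurkb and Cdca8 (borealin) forms part of the chromosomal passenger complex, was at 2.17, 2.76, 1.41, 3.75 and 2.83 CPM in PBMC C group, 2.84, 2.13, 2.82, 3.86 and 2.26 CPM in S group and 9.44, 2.43, 2.44, 5.19 and 1.71 CPM in O group. In platelets Birc5 reached 2.19, 1.32, 1.99, 2.18 and 1.74 CPM in C group, 1.54, 2.58, 1.47, 1.82 and 1.61 CPM in S group and 16.8, 1.13, 1.34, 1.61 and 2.08 CPM in O group. O1 was its highest library in both tissues, with PBMC O4 next. Cdca8 was highest in PBMC O1 (7.37 CPM) and O4 (6.27 CPM, other libraries 1.33 to 3.75 CPM), and in platelets both O1 (12.9 CPM) and O4 (11.998 CPM) were high. The kinases Aurka and Aurkb ranged from 2.08 to 4.78 and 4.96 to 7.04 CPM over the 15 PBMC libraries. Platelet O1 held 5.24 CPM of Aurka and 4.84 CPM of Aurkb, against 1.27 to 2.62 and 1.72 to 3.905 CPM in the other platelet libraries. Bub1 and Bub1b (BubR1) of the spindle checkpoint were at 0.167 to 1.07 and 4.21 to 8.16 CPM in PBMC, and at 4.97 and 9.81 CPM in platelet O1 against 0 to 1.21 and 1.98 to 5.7995 CPM elsewhere. Mad2l1, which blocks the APC/C until chromosomes are attached, ranged from 5.97 to 8.76 CPM in PBMC and from 3.38 to 10.5 CPM in platelets. Ttk (Mps1), the kinase that starts the checkpoint, and Pbk were scarce, at 0.0634 to 0.829 and 0.0645 to 0.544 CPM in PBMC and 0.104 to 1.46 and 0 to 3.09 CPM in platelets.

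Ube2c, the ubiquitin-conjugating enzyme of the APC/C (chr2:164769898-164778822, plus strand, GRCm38), had a wide range. In PBMC it was at 10.5, 18.9, 36.8, 16.2 and 14.5 CPM in C group, 17.7, 28.04, 39.2, 12.7 and 16.1 CPM in S group and 500.0, 75.8, 52.8, 279 and 20.5 CPM in O group. In platelets Ube2c was at 181, 16.6, 46.6, 102 and 116 CPM in C group, 60.1, 79.5, 81.4, 46.4 and 87.8 CPM in S group and 496, 21.8, 75.3, 29.8 and 32.7 CPM in O group. PBMC O1 to O4 exceeded all C and S group libraries, whereas in platelets C1, C4 and C5 exceeded O2 to O5. By the labels platelet C1, C4 and C5 were pools of 10 mice and C2 and C3 of 5, and PBMC O1 and O4 were pools of 3. The part of pool size in these values was not tested. Cdca3, listed with the genes of mitotic exit but known for helping to degrade Wee1, an inhibitor of mitotic entry, was at 28.7 CPM in PBMC O1, 21.8 CPM in O4 and 2.28 to 3.58 CPM in the other PBMC libraries. Platelet O1 held 34.5 CPM of Cdca3 against 0.676 to 2.78 CPM elsewhere. Cdc20, the APC/C activator, and Espl1 (separase), which cuts cohesin, ranged from 2.35 to 5.17 and 6.07 to 9.41 CPM in PBMC. Their platelet ranges were 1.84 to 9.27 and 0.516 to 6.32 CPM, with O1 the highest library for both.

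Among centromere and kinetochore genes, Cenpa, the histone H3 variant of centromeres, was abundant in PBMC at 42.9 to 75.3 CPM, with O1 (46.9 CPM) among the lower libraries. In platelets it ranged from 8.17 to 18.7 CPM. Cenpe, a kinetochore motor, was at 7.24 CPM in PBMC O1 and 16.1 CPM in platelet O1, against 2.595 to 5.26 and 1.01 to 2.24 CPM in the other libraries. Cenpf was at 5.2995 and 10.2 CPM in O1 of PBMC and platelets, and 1.33 to 2.94 and 0.583 to 3.89 CPM elsewhere. Ndc80 and Nuf2, partners in the complex that grips microtubules, did not move alike in PBMC O1, where Ndc80 (6.08 CPM) was near the bottom of its range of 5.97 to 9.54 CPM and Nuf2 (1.03 CPM) near the top of 0.193 to 1.19 CPM. In platelet O1 they were at 5.91 and 5.11 CPM, above 1.03 to 4.705 and 0.349 to 1.46 CPM in the other libraries.

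Nusap1, which bundles spindle microtubules (chr2:119618298-119651244, plus strand, GRCm38), was at 4.61, 5.16, 10.9, 5.802 and 6.38 CPM in PBMC C group, 4.89, 11.02, 14.6, 6.47 and 6.24 CPM in S group and 249.7, 22.4, 11.1, 89.1 and 8.75 CPM in O group. Platelet Nusap1 was 70.1, 8.33, 19.95, 39.4 and 58.1 CPM in C group, 21.3, 26.4, 19.2, 18.4 and 35.1 CPM in S group and 179, 10.98, 26.6, 11.04 and 15.2 CPM in O group. O1 and O4 of PBMC, and O1, C1 and C5 of platelets, were the highest. Tpx2, an activator of Aurka at the spindle, was at 30.4 CPM in PBMC O1 and 24.2 CPM in platelet O1, against 1.602 to 8.22 and 1.91 to 5.16 CPM elsewhere. The motors Kif11, Kif20a, Kif23 and Kif2c reached 11.1, 4.01, 22.9 and 1.68 CPM in PBMC O1, where Kif23 was higher still in O4 (24.4 CPM). In platelet O1 the same motors were at 16.8, 7.26, 15.9 and 3.76 CPM, each above every other platelet library. Prc1, which crosslinks the central spindle, ranged from 3.52 to 6.36 CPM in PBMC with O1 (4.39 CPM) inside that range, and from 0.825 to 3.09 CPM in platelets. Hmmr was scarce, at most 2.07 CPM in PBMC O1 and 5.51 CPM in platelet O1.

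The cytokinesis genes split. Racgap1, part of the centralspindlin complex, was among the most even of the 40 genes, at 40.7 to 63.04 CPM in PBMC and 13.2 to 19.03 CPM in platelets, with O1 lowest in PBMC. Ect2, the exchange factor that it recruits, was at 7.497 and 6.18 CPM in O1 of PBMC and platelets, against 2.101 to 3.41 and 0.593 to 2.67 CPM elsewhere. Anln (anillin), a scaffold of the contractile ring, was at 5.43 and 7.12 CPM in the same libraries and 1.08 to 3.23 and 0.132 to 1.42 CPM in the others.

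Mki67, whose product Ki-67 coats mitotic chromosomes and is the usual proliferation marker, was at 32.9, 41.7, 34.7, 48.04 and 45.8 CPM in PBMC C group, 31.9, 33.97, 43.6, 44.8 and 41.2 CPM in S group and 961, 49.2, 45.8, 128 and 32.3 CPM in O group. In platelets Mki67 was at 14.99, 8.89, 8.54, 12.8 and 17.6 CPM in C group, 8.28, 9.43, 7.05, 10.1 and 15.5 CPM in S group and 697, 12.2, 14.6, 18.2 and 10.4 CPM in O group. O1 was 22.5 times the median of the other libraries in PBMC and 61.9 times in platelets. Top2a, the topoisomerase that untangles chromosomes and another common proliferation marker, was at 9.77, 17.6, 13.01, 18.4 and 15.5 CPM in PBMC C group, 11.5, 13.7, 15.8, 20.2 and 14.3 CPM in S group and 10.7, 12.2, 11.3, 14.5 and 9.702 CPM in O group. The platelet values of Top2a were 4.504, 9.53, 6.51, 10.9 and 11.2 CPM in C group, 6.58, 8.73, 5.58, 7.901 and 5.72 CPM in S group and 28.1, 10.98, 8.14, 13.01 and 10.1 CPM in O group. These markers thus parted in PBMC O1, where Top2a was 0.765 times the median of the other libraries. The condensin genes Ncapg and Ncaph were at 4.39 and 3.49 CPM in PBMC O1, against 0.853 to 3.43 and 1.94 to 5.28 CPM elsewhere. In platelet O1 they were at 7.52 and 4.84 CPM, against 0.437 to 2.32 and 0.881 to 3.997 CPM.

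Rrm2, a subunit of ribonucleotide reductase, and Tyms, thymidylate synthase, supply building blocks of DNA. Rrm2 was at 4.89, 5.64, 4.16, 6.35 and 6.97 CPM in PBMC C group, 5.57, 5.03, 6.25, 8.06 and 4.86 CPM in S group and 123, 5.44, 5.11, 28.1 and 4.06 CPM in O group. In platelets Rrm2 was at 6.99, 5.299, 4.85, 5.36 and 7.93 CPM in C group, 3.396, 5.098, 3.52, 4.18 and 4.27 CPM in S group and 145, 5.07, 3.96, 9.83 and 5.62 CPM in O group. O1 and O4 led in PBMC and O1 in platelets, where O4 came next. Tyms was at 1.89, 3.24, 2.55, 3.02 and 2.66 CPM in PBMC C group, 3.87, 3.22, 3.49, 2.67 and 4.36 CPM in S group and 35.9, 3.5998, 2.596, 18.6 and 2.98 CPM in O group. The platelet values of Tyms were 1.896, 2.31, 1.84, 1.39 and 3.55 CPM in C group, 1.64, 2.23, 2.28, 1.696 and 1.196 CPM in S group and 46.6, 2.31, 2.17, 3.38 and 1.22 CPM in O group. Tyms shared the high libraries of Rrm2 in PBMC and the single high library in platelets.

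Compared per kilobase of exon, with both tissues scaled together, the median level over the 15 PBMC libraries was highest for Cenpa (6.97 CPM per kb), Ube2c (5.18) and Racgap1 (4.505), followed by Mki67 (2.84). In platelets it was highest for Ube2c (44.6 CPM per kb), Nusap1 (7.84) and Racgap1 (3.49). The lowest median levels were those of Nuf2 (0.0561 CPM per kb) in PBMC and Hmmr (0.102) in platelets, and neighbours in these orders overlapped in their ranges over libraries but for Mki67 and Cdc20 in PBMC, where the lowest Mki67 library lay above the highest of Cdc20.

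O group against C group asked what an established tumor did to these genes. In PBMC, 10 of the 35 mitotic genes tested passed, all higher in O group (28.6%), against 7.56% of all genes that passed higher and 4.39% lower. They were Ube2c, Nusap1, Tyms, Kif23, Mki67, Cdca3, Rrm2, Ccnb2, Tpx2 and Ccna2. The change of Ube2c was 3.25 ± 0.80 (adjusted P = 0.337). Nusap1 changed by 3.52 ± 0.90 (adjusted P = 0.337), and Tyms by 2.22 ± 0.72 (adjusted P = 0.34). Kif23 had a smaller change of 0.56 ± 0.19 (adjusted P = 0.346). That of Mki67 was 2.57 ± 0.90 (adjusted P = 0.346). By role, the genes that passed were 2 of 4 cyclins and Cdk1, 2 of 4 genes listed under mitotic exit (Ube2c and Cdca3), 3 of 7 spindle genes tested, 1 of 4 chromosome structure genes and both genes of deoxynucleotide synthesis, and none of 7 kinases and checkpoint genes, 4 kinetochore genes or 3 cytokinesis genes tested. The median log2 fold change was 0.18 over the mitotic genes and 0.0015 over all genes.

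These counts depended on O1 and O4. Without O1, 4 mitotic genes passed in PBMC, all higher (all genes 6.2% higher and 4.3% lower), with Ube2c at 2.46 ± 0.66, Nusap1 at 2.31 ± 0.64, Tyms at 1.35 ± 0.56 and Kif23 at 0.47 ± 0.19, while Mki67 was at 0.65 ± 0.35. Without O1 and O4 (all genes 5.19% higher and 3.89% lower), Ube2c at 1.36 ± 0.43 and Nusap1 at 1.10 ± 0.34 were higher in O group, Ccnb1 at -0.82 ± 0.32, Kif11 at -0.62 ± 0.23 and Kif2c at -1.55 ± 0.50 were lower, and Mki67 was at 0.06 ± 0.16. With total counts in place of TMM scaling, 7 genes passed higher and 5 lower (all genes 2.22% higher and 27.7% lower), Top2a among the lower at -0.73 ± 0.23. With the replicate number as a block 5 genes passed (all genes 7.36% higher and 4.87% lower), of which Ube2c at 2.46 ± 0.87, Nusap1 at 2.43 ± 0.93 and Kif23 at 0.52 ± 0.19 were 3 of the 10. The other 2 were Aurka, higher at 0.40 ± 0.14, and Top2a, lower at -0.33 ± 0.13. With voom and sample weights 3 genes passed higher and 4 lower (all genes 9.51% higher and 7.63% lower).

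In platelets, 6 of 39 mitotic genes tested passed in the same comparison, all higher in O group (15.4%), against 2.61% of all genes higher and 4.79% in either direction. These were Mki67 at 3.54 ± 1.19 (adjusted P = 0.91), Ccnb2 at 2.83 ± 1.04 (adjusted P = 0.91), Rrm2 at 2.43 ± 0.94 (adjusted P = 0.91), Ccnb1 at 2.32 ± 0.93 (adjusted P = 0.91) and Tyms at 2.26 ± 0.93 (adjusted P = 0.91), with Cdca3. For each of the 6 genes, O2 to O5 overlapped C group and O1 lay above every C group library. Without O1 none of the 6 passed (all genes 1.8% higher and 2.57% lower), with Mki67 at 0.14 ± 0.25, Ccnb2 at 0.21 ± 0.37, Rrm2 at 0.013 ± 0.27, Ccnb1 at 0.22 ± 0.42, Tyms at 0.038 ± 0.36 and Cdca3 at -0.066 ± 0.33, and Nusap1 passed in the other direction at -1.30 ± 0.52. Leaving out C1 or C3 left 3 or 2 genes that passed, given here without the share of all genes in those 2 fits. The median log2 fold change was 0.78 over the mitotic genes with O1, with 38 of 39 above 0, and 0.038 without it, with 22 of 39 above 0. With the replicate number as a block 0 of these genes passed (all genes 2.55% higher and 3.95% lower). The count was also 0 with voom and sample weights (all genes 3.23% higher) and 2 with DESeq2 (3.55%), but 10 without a filter on low counts (3.19%) and 11 with all 3 groups in 1 fit (4.4%).

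**Figure D3:**
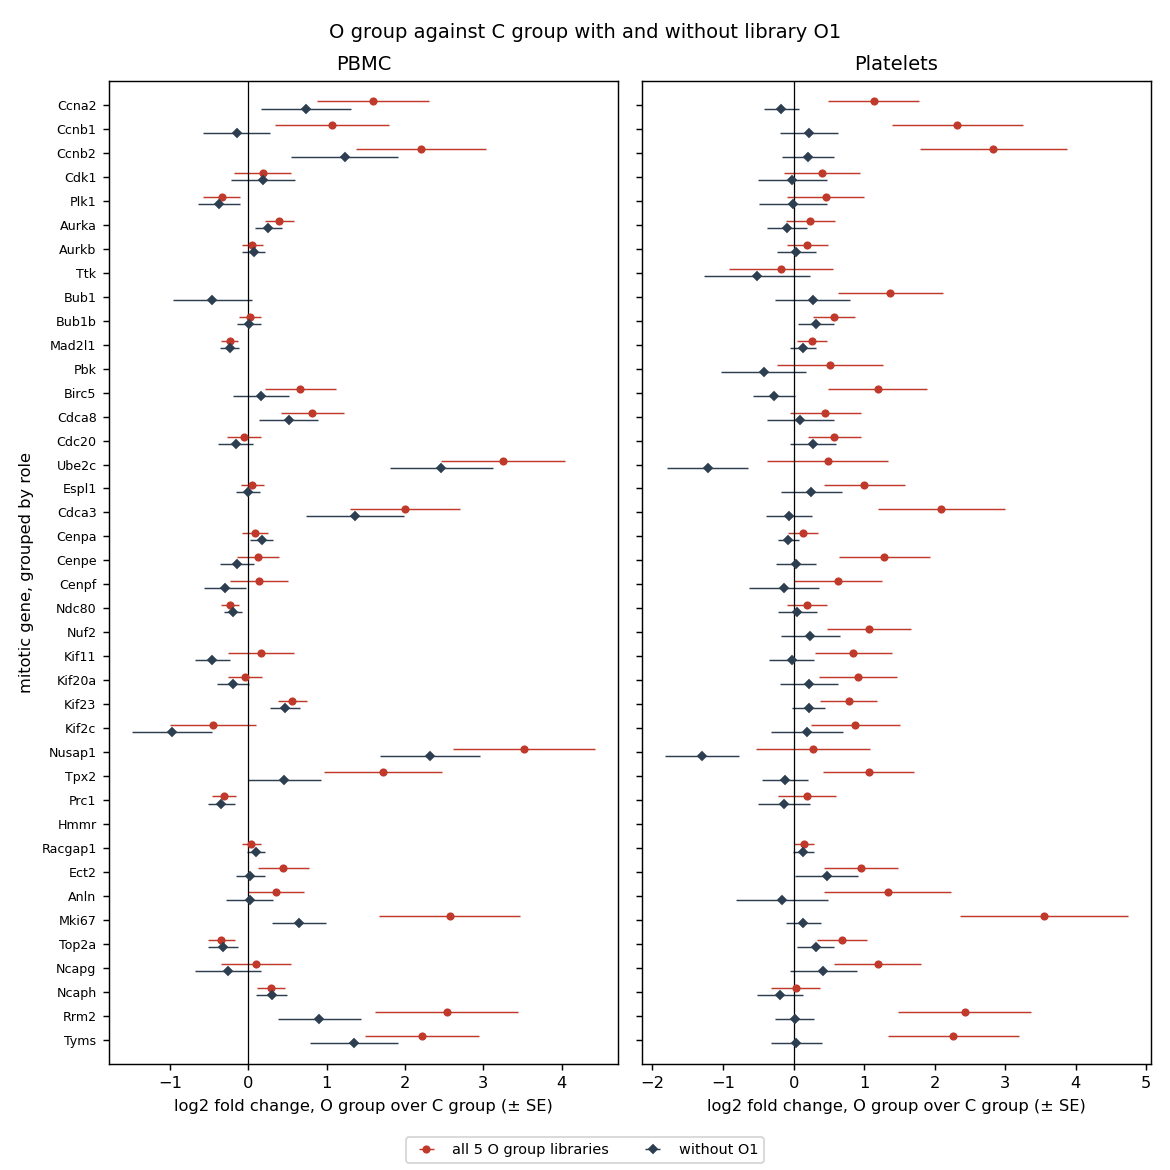
Log2 fold change (± SE) of each mitotic gene tested, O group over C group, with all 5 O group libraries (circles) and without O1 (diamonds), with PBMC on the left and platelets on the right. In platelets Mki67 moves from 3.54 to 0.14 without O1, while in PBMC Ube2c moves from 3.25 to 2.46.

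S group against C group asked what the small inoculum did by 14 days, when by the paper its mice had no visible tumor. In PBMC, 3 of 38 mitotic genes passed, all higher in S group (7.89%), against 1.23% of all genes higher and 2.64% in either direction. Tyms was at 0.42 ± 0.18 (adjusted P = 1), Cdca8 at 0.47 ± 0.21 (adjusted P = 1) and Aurka at 0.34 ± 0.15 (adjusted P = 1). These changes were 1.26 to 1.39 fold, and with the replicate number as a block 0 mitotic genes passed (all genes 2.5% higher and 1.8% lower). With total counts, with all 3 groups in 1 fit or without a filter on low counts 0 passed as well (all genes 0.832%, 0.753% and 3.17% higher), and with RLE factors or DESeq2 1 passed (1.06% and 1.01%). The count fell to 0 without C5, without S1 or without S3, and to 1 without C1, C3, S2, S4 or S5. For these fits without single libraries the share of all genes is not given. In platelets, 3 of 34 genes passed, all lower in S group (8.82%), against 2.13% of all genes lower, 4.29% higher and 6.42% in either direction. Rrm2 was at -0.58 ± 0.21 (adjusted P = 0.746), the condensin gene Ncaph at -0.78 ± 0.34 (adjusted P = 0.769) and the checkpoint gene Mad2l1 at -0.49 ± 0.22 (adjusted P = 0.769). Mad2l1 in platelets was at 5.63, 5.897, 6.99, 4.5002 and 7.61 CPM in C group, 5.04, 4.96, 3.38, 5.13 and 3.38 CPM in S group and 10.5, 6.53, 6.72, 6.604 and 6.996 CPM in O group, so that C4 lay within the range of S group. Of the 34 genes, 32 had a log2 fold change below 0, with a median of -0.37 against -0.015 over all genes. With total counts 0 of these genes passed (all genes 10.3% higher and 0.241% lower), and with the replicate number as a block 1 passed lower (all genes 3.99% higher and 1.78% lower). With voom and sample weights 12 passed lower (all genes 9.24% higher and 8.92% lower). Leaving out single libraries gave 0 genes without C5 (all genes 1.78% lower) and 1 without S3 (2.57%), but 5 without C1 (4.43%) and 6 without C2 (2.36%).

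S group against O group compared the inocula, and in platelets also pools of 10 mice with pools of 3 to 5. In platelets 18 of 35 mitotic genes passed, all lower in S group (51.4%), against 6.67% of all genes lower and 7.23% higher. The smallest P values were those of Mad2l1 at -0.77 ± 0.22 (adjusted P = 0.254), Nuf2 at -1.98 ± 0.60 (adjusted P = 0.26), Top2a at -1.01 ± 0.31 (adjusted P = 0.268), Mki67 at -3.87 ± 1.202 (adjusted P = 0.269) and Ccnb2 at -3.35 ± 1.05 (adjusted P = 0.269). Nuf2 was at 0.711, 0.598, 0.825, 0.529 and 1.16 CPM in C group, 0.424, 0.349, 0.367, 0.372 and 0.520 CPM in S group and 5.11, 0.732, 0.597, 1.46 and 0.794 CPM in O group. By role, the 18 were all 4 chromosome structure genes, both deoxynucleotide synthesis genes, 4 of 6 spindle genes, 2 of 4 cyclins and Cdk1, 2 of 7 kinases and checkpoint genes, 2 of 4 genes listed under mitotic exit, 2 of 5 kinetochore genes and 0 of 3 cytokinesis genes. Nuf2 had 5 to 10 counts in the S group libraries. Without O1 (all genes 8.51% higher and 6.41% lower), 8 genes passed lower and Ube2c passed higher at 0.78 ± 0.33. Mad2l1 was then at -0.66 ± 0.20, Nuf2 at -1.18 ± 0.39, Top2a at -0.66 ± 0.20 and Ccnb2 at -0.77 ± 0.32, while Mki67 was at -0.50 ± 0.23. With the replicate number as a block 10 genes passed, all lower (all genes 8.06% higher and 3.55% lower), and with voom and sample weights 7, all lower (all genes 10.6% higher and 8.25% lower). For Mad2l1 and Top2a, all 5 S group libraries lay below all 5 O group libraries but for 1 pair of Top2a, S2 (8.73 CPM) against O3 (8.14 CPM). These genes were named for their small P, and the share of all genes split in this way was not counted.

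In PBMC, 10 of 35 mitotic genes passed between S group and O group, 9 lower in S group (25.7%, all genes 7.8%) and 1 higher (2.86%, all genes 4.43%). The lower genes were led by Ube2c at -3.01 ± 0.78 (adjusted P = 0.296), Nusap1 at -3.12 ± 0.89 (adjusted P = 0.297), Mki67 at -2.62 ± 0.89 (adjusted P = 0.319), Cdca3 at -2.02 ± 0.70 (adjusted P = 0.326) and Rrm2 at -2.44 ± 0.90 (adjusted P = 0.342). Top2a was the gene that was higher in S group, at 0.37 ± 0.16 (adjusted P = 0.379). Without O1 (all genes 4.01% higher and 5.65% lower), Ube2c at -2.22 ± 0.63, Nusap1 at -1.91 ± 0.64 and Cdca3 at -1.38 ± 0.62 passed lower and Kif11 higher, and Mki67 was at -0.70 ± 0.34. Rrm2 was then at -0.81 ± 0.52 and Top2a at 0.35 ± 0.17. Without O1 and O4 (all genes 3.95% higher and 4.46% lower) the split was 1 lower (Ube2c at -1.12 ± 0.41) and 5 higher, with Top2a at 0.45 ± 0.17. In the fit with the replicate number as a block (all genes 5.3% higher and 8.47% lower), 2 genes passed, Ube2c lower at -2.22 ± 0.85 and Top2a higher at 0.36 ± 0.10. With voom and sample weights 1 passed lower and 3 higher (all genes 8.08% higher and 8.85% lower). With total counts the split was 8 lower and 6 higher (all genes 24.3% higher and 2.36% lower).

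The summed level of red cell markers was, like that of the mitotic genes, highest in O1 of both tissues. Not every marker followed the sum, as Hbb-bs had 322521 counts in PBMC O1, 891040 in O2 and 821895 in O3. The summed level of 12 erythroid markers, globin genes and genes of young red cells such as Slc4a1 and Alas2, was 61315 to 503379 CPM in PBMC O group, 29078 to 92565 CPM in C group and 30354 to 84664 CPM in S group, and 45409 to 748752, 54769 to 352613 and 89072 to 242315 CPM in platelet O, C and S groups. All 12 had counts in every library. All 12 passed higher in O group than in C group in PBMC (11 of 12 without O1), and 3 of 12 in platelets (0 of 12 without O1). An erythroid score, the mean log2(CPM + 1) of the 12 markers, read 6.93, 7.45, 8.37, 7.21 and 7.39 for PBMC C1 to C5, 7.37, 8.02, 8.37, 6.94 and 7.48 for S1 to S5, and 12.7, 9.3995, 8.95, 10.5 and 7.899 for O1 to O5. Platelet scores were 9.78, 6.801, 8.19, 9.35 and 9.41 for C1 to C5, 8.09, 8.598, 8.36, 7.95 and 8.78 for S1 to S5, and 12.2, 7.21, 8.97, 7.71 and 7.93 for O1 to O5. The highest scores were thus those of O1, O4 and O2 within PBMC and of O1, C1, C5 and C4 within platelets.

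With group and this score in 1 edgeR fit per tissue, chosen after the values were seen, 14 of 38 mitotic genes had a slope with an adjusted P under 0.05 in PBMC, all positive (36.8%, all genes 7.55%), and 16 of 39 in platelets, all positive (41.0%, all genes 7.68% positive, 0.742% negative and 8.42% in either direction). A slope is the log2 change per unit of score. In PBMC it was 1.07 ± 0.08 (adjusted P = 2.25e-07) for Nusap1, 1.03 ± 0.082 (adjusted P = 4.63e-07) for Ube2c and 0.93 ± 0.12 (adjusted P = 5.32e-05) for Mki67, and in platelets 0.96 ± 0.049 (adjusted P = 9.99e-10) for Ube2c, 0.88 ± 0.048 (adjusted P = 2.23e-09) for Nusap1 and 0.99 ± 0.12 (adjusted P = 3.14e-05) for Mki67. Without O1, 2 genes kept such a slope in each tissue (all genes 1.45% in PBMC and 1.34% in platelets). They were Ube2c and Nusap1 in both, with slopes of 1.33 ± 0.063 (adjusted P = 1.25e-08) and 1.17 ± 0.13 (adjusted P = 5.79e-05) in PBMC and 1.09 ± 0.078 (adjusted P = 1.79e-06) and 0.98 ± 0.092 (adjusted P = 9.75e-06) in platelets. They kept it in PBMC without O1 and O4 as well. The slope of Mki67 without O1 was 0.45 ± 0.14 (adjusted P = 0.212) in PBMC and 0.30 ± 0.12 (adjusted P = 0.432) in platelets. Markers of other cells moved with the score as well. With all libraries, 3 of 9 neutrophil markers in PBMC and 6 of 8 in platelets had a positive slope at an adjusted P under 0.05. So did 1 of 8 platelet markers in PBMC and 1 of 7 T cell markers in platelets, where 1 of 6 NK cell markers had a negative slope.

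**Figure D4:**
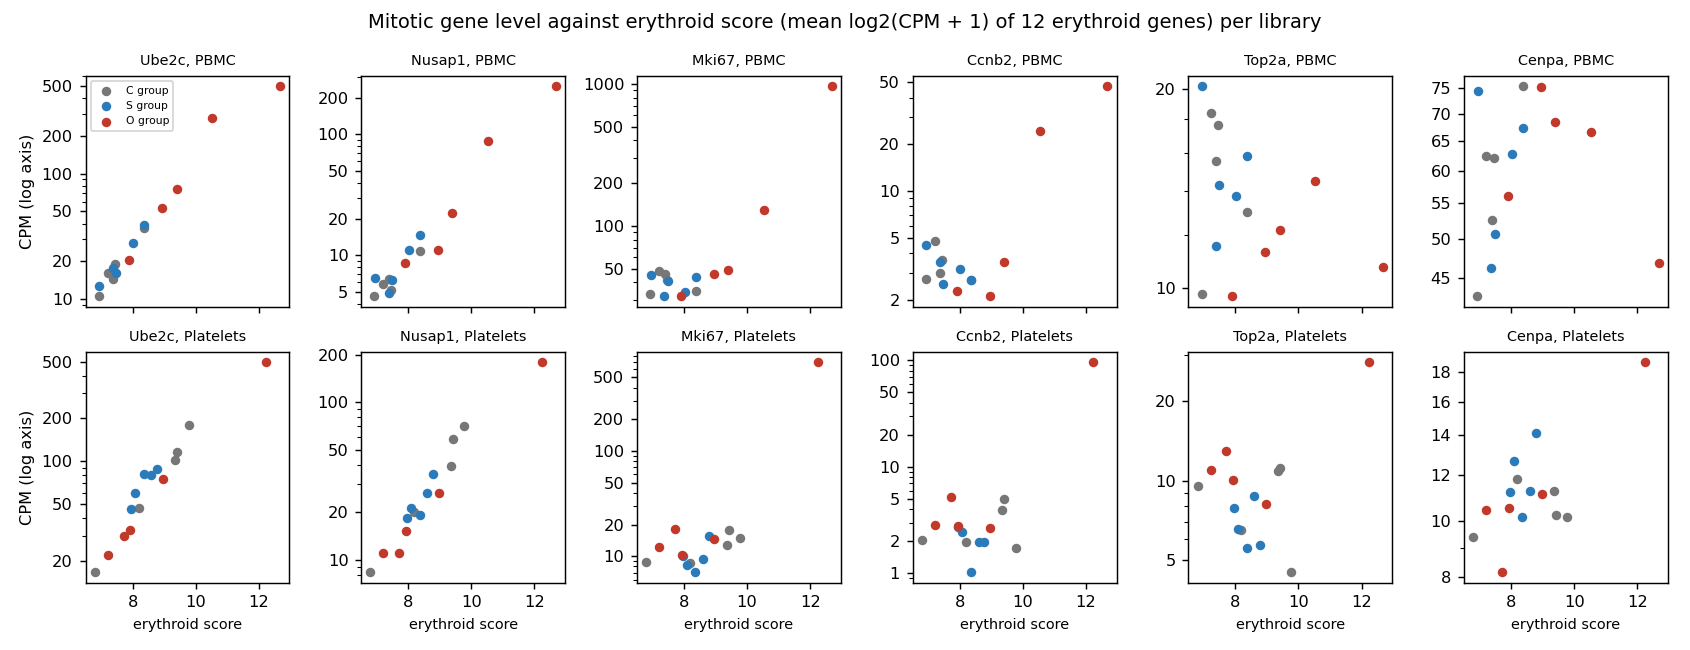
Level of 6 mitotic genes (CPM, log axis) against the erythroid score (mean log2(CPM + 1) of 12 erythroid genes) in each library, with PBMC in the upper row and platelets in the lower row, and C, S and O groups in grey, blue and red. Ube2c and Nusap1 follow the score over its whole range in both tissues, Mki67 and Ccnb2 are high only in the libraries with the highest scores, and Top2a and Cenpa in PBMC are not highest at the highest score.

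Other markers were high in O1 and O4 as well. The 8 platelet and megakaryocyte markers summed to 10042 CPM in PBMC O1 and 6007 CPM in O4, against 704 to 4199.8 CPM in the other PBMC libraries. The 9 neutrophil markers summed to 6545 CPM in PBMC O1 and 5007 CPM in O4, against 387 to 3254 CPM in the other PBMC libraries, and to 3438 CPM in platelet O1, against 146 to 717 CPM. Granulocyte progenitor markers summed to 2.58 to 16.7 CPM in PBMC and 0.171 to 4.18 CPM in platelets, and 6 melanocyte and melanoma markers to 20.6 to 44.4 CPM in PBMC and 1.51 to 6.29 CPM in platelets. Of the melanocyte markers Mlana, Tyr, Tyrp1 and Dct had at most 24 counts in any library, and Pmel and Mitf made up most of the sum. The granulocyte progenitor sums of platelet O1 to O4 (1.64 to 4.18 CPM) lay above those of all C and S group platelet libraries (0.171 to 1.36 CPM). These 4 sums rested on Prtn3, with 22, 43, 22 and 82 counts in O1 to O4, where each other marker of the list had at most 3 counts. The cell type markers that passed were as follows. For O group against C group in PBMC, 12 of 12 erythroid and 1 of 9 neutrophil markers passed higher. Lower were 7 of 7 T cell, 4 of 6 NK cell and 1 of 5 plasma cell markers. In the same comparison without O1, 11 of 12 erythroid and 1 of 6 monocyte markers passed higher. Lower were 7 of 7 T cell, 4 of 6 NK cell and 1 of 5 plasma cell markers. Between S group and O group in PBMC, 7 of 7 T cell, 6 of 6 NK cell and 1 of 5 plasma cell markers passed higher. Lower were 12 of 12 erythroid, 3 of 9 neutrophil and 1 of 2 granulocyte progenitor markers. There, without O1, 7 of 7 T cell, 6 of 6 NK cell and 1 of 6 plasma cell markers passed higher. Lower were 11 of 12 erythroid and 1 of 2 granulocyte progenitor markers. With the replicate number as a block, 7 of 7 T cell, 6 of 6 NK cell, 2 of 5 plasma cell and 1 of 2 melanocyte markers passed higher. Lower were 7 of 12 erythroid, 3 of 6 monocyte and 2 of 2 granulocyte progenitor markers. T cell and NK cell markers thus went the other way from the erythroid markers in PBMC, and 0 of 6 B cell markers passed. Between S group and C group in PBMC 0 markers passed, and with the block 1 of 6 NK cell and 1 of 12 erythroid markers passed higher.

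In platelets, for O group against C group, 4 of 8 neutrophil, 3 of 12 erythroid, 1 of 1 granulocyte progenitor and 1 of 2 melanocyte markers passed higher. Lower were 3 of 6 B cell, 3 of 7 T cell, 1 of 6 NK cell, 1 of 5 plasma cell and 1 of 5 stem cell markers. When O1 was left out, 1 of 1 granulocyte progenitor and 1 of 2 melanocyte markers passed higher. Lower were 3 of 7 T cell, 2 of 6 B cell, 2 of 5 plasma cell and 1 of 6 NK cell markers. Between S group and O group, where 18 of 35 mitotic genes passed, 6 of 7 T cell, 5 of 6 B cell, 3 of 6 NK cell, 3 of 6 monocyte and 2 of 5 plasma cell markers passed higher. Lower were 6 of 12 erythroid, 6 of 8 neutrophil, 1 of 1 granulocyte progenitor and 1 of 2 melanocyte markers. There, without O1, 6 of 7 T cell, 5 of 6 B cell, 3 of 6 NK cell, 3 of 6 monocyte, 2 of 5 plasma cell and 1 of 8 neutrophil markers passed higher. Lower were 2 of 8 neutrophil, 1 of 6 NK cell, 1 of 1 granulocyte progenitor and 1 of 2 melanocyte markers. Between S group and C group, 3 of 6 B cell, 3 of 7 T cell, 1 of 6 NK cell and 1 of 5 stem cell markers passed higher. Markers of each list that are not named in a comparison did not pass in it. The part of red cell precursors, or of any other cell, in the mitotic gene levels was not tested.

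Platelets against PBMC compared the tissues in 1 fit of the 30 libraries that also held the group, at an adjusted P under 0.05. With TMM scaling over both tissues, 31 of the 40 genes passed, 26 higher in platelets (65.0%, all genes 35.8%) and 5 lower (12.5%, all genes 45.2%), where 81% of all genes passed in either direction. With total counts the direction turned for 17 of the 31, and 4 genes passed higher and 19 lower (all genes 14.2% higher and 76.9% lower), while the median of all genes moved by -1.21 on the log2 scale. Relative to that median the mitotic genes stood 0.94 higher in platelets under TMM scaling and 0.91 higher under total counts. The genes higher under both scalings included Ube2c at 2.38 ± 0.50 (adjusted P = 7.17e-05) with TMM scaling and 1.07 with total counts, Nusap1 at 2.36 ± 0.52 (adjusted P = 0.00014) and 1.11, Cdca8 at 2.02 ± 0.24 (adjusted P = 7.31e-09) and 0.75, and Pbk at 2.17 ± 0.43 (adjusted P = 2.94e-05) and 0.88. The 5 lower genes were lower under both, with Cenpa at -1.18 ± 0.094 (adjusted P = 1.14e-12) and -2.41, Espl1 at -1.21 ± 0.22 (adjusted P = 1.29e-05) and -2.50, Racgap1 at -0.39 ± 0.077 (adjusted P = 3.10e-05) and -1.62, and Kif23 and Prc1. Without both O1 libraries 33 genes passed, 27 higher and 6 lower (all genes 39.8% higher and 42.7% lower). Mki67 did not pass with TMM scaling (-0.22 ± 0.50 (adjusted P = 0.691)). All 6 B cell and all 7 T cell markers had counts in every platelet library, and the part of nucleated cells in the platelet levels was not tested.

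**Figure D5:**
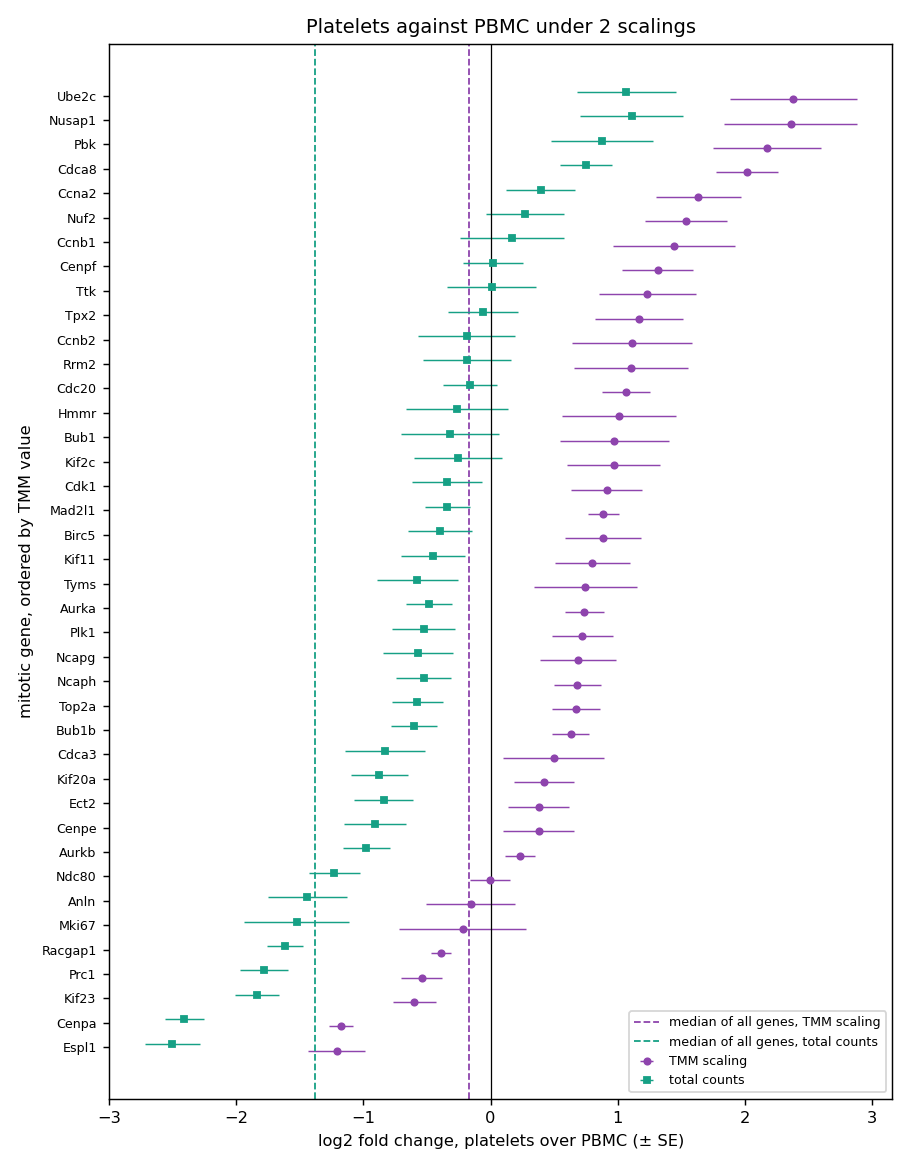
Log2 fold change (± SE) of the 40 mitotic genes, platelets over PBMC in 30 libraries, with TMM scaling (circles) and with total counts (squares), and dashed lines at the median of all genes under each scaling. Most genes lie to the right of the dashed line of their scaling, and Cenpa, Espl1, Kif23, Prc1, Racgap1 and Mki67 lie to the left under both.

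The response to the tumor cells was also compared between tissues, as the log2 fold change in platelets minus that in PBMC. For O group against C group, 2 genes passed higher (5.0%, all genes 3.89%) and 2 lower (5.0%, all genes 2.71%), against 6.59% of all genes in either direction. Top2a differed by 1.11 ± 0.37 (adjusted P = 0.546) and Mad2l1 by 0.59 ± 0.23 (adjusted P = 0.616), while Nusap1 differed by -3.17 ± 1.05 (adjusted P = 0.538) and Ube2c by -2.71 ± 1.03 (adjusted P = 0.598). With total counts 11 genes passed higher and 2 lower (all genes 10.1% higher and 1.72% lower). Without both O1 libraries 4 genes passed, all lower (all genes 2.12% higher and 5.94% lower), with Nusap1 at -3.64 ± 0.79 (adjusted P = 0.062) and Ube2c at -3.72 ± 0.83 (adjusted P = 0.062), while Top2a at 0.61 ± 0.31 (adjusted P = 0.666) and Mad2l1 at 0.35 ± 0.22 (adjusted P = 0.77) did not pass. For S group against O group, 17 of 40 genes passed, all lower in platelets (42.5%, all genes 7.75% lower and 5.86% higher), led by Mad2l1 at -1.06 ± 0.23 (adjusted P = 0.13), Top2a at -1.49 ± 0.37 (adjusted P = 0.175), Bub1 at -3.12 ± 0.91 (adjusted P = 0.201), Kif2c at -2.53 ± 0.80 (adjusted P = 0.205) and Ndc80 at -1.08 ± 0.34 (adjusted P = 0.205). Bub1 had 0 to 7 and Kif2c 3 to 9 counts in the platelet S group libraries, so that their values rest on few reads. Without both O1 libraries 7 of these 17 passed lower (all genes 12.7% higher and 2.85% lower), among them Mad2l1 at -0.76 ± 0.22 (adjusted P = 0.109) and Top2a at -0.93 ± 0.32 (adjusted P = 0.148). Without them Bub1 was at -2.06 ± 0.79 (adjusted P = 0.202), Kif2c at -2.23 ± 0.70 (adjusted P = 0.117) and Ndc80 at -0.73 ± 0.34 (adjusted P = 0.298), and Ube2c and Nusap1 passed higher. For S group against C group, 2 of 40 genes passed, both lower (5.0%, all genes 2.05% lower, 3.33% higher and 5.38% in either direction), namely Ncaph at -1.12 ± 0.40 (adjusted P = 0.798) and Aurka at -0.74 ± 0.36 (adjusted P = 0.923). With RLE factors 1 passed lower (all genes 3.53% higher and 1.98% lower), with total counts 0 (all genes 6.33% higher and 0.467% lower) and with the replicate number as a block 4, all lower (all genes 2.56% higher and 1.79% lower). The split of all genes into higher and lower depended on scaling, with 967 and 1278 genes for S group against O group under TMM factors and 1383 and 631 under RLE factors, and 641 and 447 against 348 and 625 for O group against C group.

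Other genes of the cell cycle were described from 6 lists, with each count to be read against the share of all genes that passed in the same comparison. Of the genes in the lists and the 40 mitotic genes, Cdkn1a was the only one with an adjusted P under 0.05 by edgeR in a comparison of groups or of responses. It encodes p21, an inhibitor of cyclin-dependent kinases that is induced by p53. In platelets Cdkn1a was at 8.12, 3.59, 4.85, 5.43 and 5.87 CPM in C group, 18.6, 21.8, 32.4, 18.6 and 12.3 CPM in S group and 14.9, 9.85, 4.41, 6.15 and 7.03 CPM in O group. The S and C groups did not overlap, a split that was not counted over all genes, and only S5 lay below an O group library, O1. At the unadjusted P, 4.29% of all genes passed higher between S and C groups. Cdkn1a was higher in S group than in C group by 1.88 ± 0.26 (adjusted P = 0.0417) and than in O group by 1.30 ± 0.32 (adjusted P = 0.225), and without O1 the latter was 1.54 ± 0.29. For the former the adjusted P was 0.0666 with RLE factors, 0.459 with the replicate number as a block and 3.63e-07 with DESeq2. It ranged from 0.00774 to 0.296 when each library was left out in turn, with a log2 fold change of 1.67 to 2.04. In PBMC the values of Cdkn1a were 12.9, 51.04, 74.8, 78.4 and 48.2 CPM in C group, 13.6, 61.6, 102, 50.8 and 45.1 CPM in S group and 37.7, 149.9, 126, 88.2 and 54.6 CPM in O group, where S group and C group overlapped. The response of Cdkn1a in platelets minus that in PBMC was 1.81 ± 0.62 (adjusted P = 0.783) for S group against C group and 1.94 ± 0.62 (adjusted P = 0.205) for S group against O group.

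In PBMC, O group against C group (all genes 7.56% higher and 4.39% lower), 7 of 49 other mitotic genes tested were higher and 2 lower, with Pttg1 (securin) at 1.63 ± 0.41, Pkmyt1 at -0.31 ± 0.091 and Stmn1 at -0.40 ± 0.13. Of 35 genes of S phase and DNA replication, 0 were higher and 3 lower, with Mcm6, a subunit of the replicative helicase, at -0.22 ± 0.079, Mcm5 at -0.20 ± 0.078 and Mcm3 at -0.17 ± 0.073. Of 20 genes of G1 and G1/S control, 3 were higher and 3 lower, with E2f2, a transcription factor, at 2.28 ± 0.77, Cdk4 at -0.22 ± 0.077 and Ccnd2 at -0.23 ± 0.10. Of 17 APC/C genes, 3 were higher and 1 lower, with Ube2s, which extends ubiquitin chains after Ube2c, at 0.63 ± 0.21, Anapc13 at 0.93 ± 0.33 and Fzr1 (Cdh1), the late activator of the APC/C, at 1.88 ± 0.70. The adjusted P of these genes was 0.337 to 0.392, and 0 of 7 genes that control transcription of mitotic genes and 0 of 5 CDK inhibitors passed. In the fit without O1 (all genes 6.2% higher and 4.3% lower) the other mitotic genes that passed were 4 higher and 4 lower, the replication genes 0 and 3, the G1 genes 1 and 1 and the APC/C genes 2 and 0. Pttg1 was then at 1.195 ± 0.31, E2f2 at 0.68 ± 0.23 and Fzr1 at 0.46 ± 0.21. Without O1 and O4 (all genes 5.19% higher and 3.89% lower) the counts were 2 higher and 7 lower, 0 and 5, 1 and 1, and 0 and 0. With total counts, where the median of all genes moved down (all genes 2.22% higher and 27.7% lower), 19 of 35 replication genes and 9 of 49 other mitotic genes were lower, and 0 and 3 higher.

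In PBMC, S group against O group (all genes 4.43% higher and 7.8% lower), 3 of 50 other mitotic genes were higher and 4 lower, with Pkmyt1 at 0.41 ± 0.094, Pttg1 at -1.53 ± 0.41 and Cenpw at -1.35 ± 0.42. Of 35 replication genes 6 were higher and 0 lower, with and without O1, with Mcm6 at 0.31 ± 0.075, Prim1 at 0.36 ± 0.12 and Mcm3 at 0.23 ± 0.08. Of 20 G1 genes 1 was higher and 1 lower, namely E2f2 at -2.22 ± 0.76 and Ccnd2 at 0.28 ± 0.10, and of 17 APC/C genes 2 were higher and 3 lower, with Anapc13 at -1.15 ± 0.34, Ube2s at -0.61 ± 0.21 and Cdc26 at 0.19 ± 0.072. Their adjusted P was 0.296 to 0.344, and 0 of 7 transcription genes and 0 of 4 CDK inhibitors passed. With the replicate number as a block (all genes 5.3% higher and 8.47% lower) the other mitotic genes were 2 higher and 4 lower, the replication genes 6 and 0, the G1 genes 2 and 0, the APC/C genes 2 and 2 and the CDK inhibitors 0 and 2. Without O1 (all genes 4.01% higher and 5.65% lower) the other mitotic genes were 5 higher and 3 lower, the G1 genes 1 and 1, the APC/C genes 2 and 2, and 1 of 5 CDK inhibitors was higher. Comparing S group with C group in PBMC (all genes 1.23% higher and 1.41% lower), 1 of 35 replication genes was higher, Prim1 at 0.26 ± 0.10. The same held for 1 of 7 transcription genes, Foxm1 at 0.36 ± 0.15, and 1 of 17 APC/C genes was lower, Cdc16 at -0.14 ± 0.06, each with an adjusted P of 1, while 0 genes passed in the other lists. With the block (all genes 2.5% higher and 1.8% lower) these 3 counts were the same, and 1 of 49 other mitotic genes was higher.

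In platelets, S group against O group (all genes 7.23% higher and 6.67% lower), 12 of 44 other mitotic genes were lower in S group and 0 higher, with Kif4, a chromokinesin, at -2.37 ± 0.85, Nek2 at -1.04 ± 0.38 and Kif18a at -1.48 ± 0.55. Of 35 replication genes, 11 were lower and 1 higher, with Gins2 at -1.59 ± 0.42, Pole at -0.95 ± 0.27 and Rrm1 at -0.75 ± 0.24. Of 7 transcription genes 2 were lower, Mybl2 (B-Myb), a partner of the complexes that bind CHR elements, at -1.59 ± 0.61 and Lin54 at -0.50 ± 0.20. Of 19 G1 genes 1 was lower, Rb1 (the retinoblastoma protein) at -0.87 ± 0.30, as was 1 of 17 APC/C genes, Anapc13 at -1.10 ± 0.41, and of 5 CDK inhibitors Cdkn1a was higher. Apart from Cdkn1a, the adjusted P was 0.225 to 0.32. Leaving out O1 (all genes 8.51% higher and 6.41% lower), 3 of 45 other mitotic genes were lower and 1 higher, 8 of 35 replication genes lower and 0 higher, 1 of 7 transcription genes lower and 3 of 19 G1 genes lower, with Kif4 at -0.82 ± 0.47, Gins2 at -1.61 ± 0.44 and Mybl2 at -0.84 ± 0.45. With total counts (all genes 5.75% higher and 2.09% lower) 2 of 44 other mitotic genes and 2 of 35 replication genes were lower.

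In platelets, O group against C group (all genes 2.61% higher and 2.17% lower), 2 of 48 other mitotic genes were higher, Knl1 at 1.26 ± 0.53 and Ncapg2 at 1.12 ± 0.50, and 2 of 35 replication genes, Pole at 0.77 ± 0.26 and Uhrf1 at 0.73 ± 0.29. Of 20 G1 genes E2f8 at 1.91 ± 0.68 was higher, and of 7 transcription genes Mybl2 at 1.5 ± 0.69, each with an adjusted P of 0.91. In this comparison 0 genes of the lists were lower and 0 of 5 CDK inhibitors and 0 of 17 APC/C genes passed. Without O1 (all genes 1.8% higher and 2.57% lower), 0 of 49 other mitotic genes were higher and 1 lower, 1 of 35 replication genes was higher, 2 of 20 G1 genes were higher and 1 lower, and 0 of 7 transcription genes passed. Between S group and C group in platelets (2.13% of all genes lower), 2 of 43 other mitotic genes were lower, Kif4 at -0.91 ± 0.33 and Kif18a at -1.13 ± 0.44. The G1 gene Rb1 at -0.48 ± 0.17 and the APC/C gene Anapc13 at -0.57 ± 0.21 were lower as well, with adjusted P of 0.746 to 0.752 for these 4 genes, and 0 of 34 replication and 0 of 7 transcription genes passed.

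Between tissues, 25 of 35 replication genes were higher in platelets and 3 lower with TMM scaling (all genes 35.8% and 45.2%), with Dut at 3.03 ± 0.17, Gins4 at 0.71 ± 0.078 and Tk1 at -1.70 ± 0.20. The other mitotic genes split into 23 higher and 7 lower of 53, with Zwint at 2.53 ± 0.15, Pkmyt1 at -1.65 ± 0.12 and Stmn1 at 1.57 ± 0.13. The G1 genes split into 7 and 7 of 20, with Ccnd1 at 2.56 ± 0.14, Ccnd3 at 2.55 ± 0.19 and Cdk2 at -0.73 ± 0.078. The remaining lists held 9 higher and 4 lower of 17 APC/C genes, with Anapc11 at 2.06 ± 0.14, Anapc16 at 0.99 ± 0.088 and Anapc13 at 1.87 ± 0.20. Of 6 CDK inhibitors 3 were higher and 2 lower, with Cdkn1c at 3.70 ± 0.26, Cdkn1b at -0.80 ± 0.08 and Cdkn2d at 1.13 ± 0.11, and 1 and 1 of 7 transcription genes, Rbbp4 at 0.65 ± 0.092 and Lin9 at -0.33 ± 0.12. Their adjusted P was 3.93e-16 to 0.0137. With total counts, where the median of all genes moved down (all genes 14.2% higher and 76.9% lower), 28 of 35 replication genes and 35 of 53 other mitotic genes were lower, and 1 and 3 higher.

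For the response in platelets minus that in PBMC, S group against O group (all genes 5.86% higher and 7.75% lower), 19 of 35 replication genes were lower, with Gins2 at -2.22 ± 0.49, Mcm3 at -0.77 ± 0.20 and Pole at -1.01 ± 0.26. Of 53 other mitotic genes 14 were lower, with Dlgap5 at -1.46 ± 0.48, Kif18a at -1.54 ± 0.51 and Stmn1 at -0.85 ± 0.28. Of 20 G1 genes 5 were lower, with Cdc25a at -0.71 ± 0.24, Rb1 at -0.74 ± 0.30 and Rbl2 at -0.58 ± 0.25. Of 7 transcription genes 2 were lower, Mybl2 at -1.60 ± 0.66 and Lin54 at -0.46 ± 0.22, and of 17 APC/C genes 4, with Anapc1 at -0.43 ± 0.18, Anapc4 at -0.42 ± 0.17 and Anapc5 at -0.67 ± 0.29. The adjusted P of these genes was 0.13 to 0.347. Without both O1 libraries (all genes 12.7% higher and 2.85% lower) 7 replication genes were lower, 7 other mitotic genes lower and 3 higher, 1 G1 gene lower and 1 higher, 2 APC/C genes higher and 0 transcription genes lower. For O group against C group (all genes 3.89% higher and 2.71% lower), 8 of 35 replication genes were higher, with Pole at 1.00 ± 0.26, Mcm5 at 0.64 ± 0.21 and Mcm2 at 0.68 ± 0.25. Of 53 other mitotic genes 7 were higher and 1 lower, with Kifc1 at 1.05 ± 0.36, Nek2 at 1.04 ± 0.42 and Pttg1 at -1.56 ± 0.63. Of 20 G1 genes 4 were higher, with E2f8 at 1.76 ± 0.64, Cdc25a at 0.67 ± 0.24 and Ccnd2 at 0.60 ± 0.25. Of 17 APC/C genes 1 was higher, Anapc5 at 0.63 ± 0.29, at adjusted P of 0.537 to 0.722. Without both O1 libraries (all genes 2.12% higher and 5.94% lower) 3 replication genes were higher, 2 other mitotic genes higher and 3 lower, 3 G1 genes higher and 1 lower, and 2 APC/C genes lower. In the S group response over C group (all genes 3.33% higher and 2.05% lower), Gins2 at -1.07 ± 0.48 was the replication gene that was lower. The same held for Kif18a at -1.17 ± 0.50 and Smc4 at -0.49 ± 0.22 among 53 other mitotic genes and Anapc4 at -0.40 ± 0.17 among 17 APC/C genes, at an adjusted P of 0.907.

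With the erythroid score, 15 of 52 other mitotic genes had a positive slope in PBMC (all genes 7.55%), with Pttg1 at 0.53 ± 0.039, Cdc25b at 0.45 ± 0.061 and Cit at 0.43 ± 0.067, and 12 of 49 in platelets (all genes 7.68%), with Pttg1 at 0.67 ± 0.058, Cdc25b at 0.64 ± 0.063 and Psrc1 at 0.86 ± 0.13. Of 35 replication genes 0 had one in PBMC and 2 in platelets, Tk1 at 0.41 ± 0.11 and Lig1 at 0.26 ± 0.077. Of 20 G1 genes 3 had a positive slope in PBMC, E2f2 at 0.79 ± 0.086, Tfdp1 at 0.14 ± 0.031 and E2f8 at 0.27 ± 0.073, and 4 in platelets, with E2f2 at 0.85 ± 0.064, E2f8 at 0.49 ± 0.12 and Ccne1 at 0.28 ± 0.084. Of 17 APC/C genes 3 had one in each tissue, Fzr1 at 0.74 ± 0.081, Ube2s at 0.23 ± 0.044 and Anapc13 at 0.33 ± 0.092 in PBMC and Fzr1 at 0.58 ± 0.04, Ube2s at 0.32 ± 0.053 and Anapc5 at 0.25 ± 0.06 in platelets. The slopes of Cdkn3 at 0.65 ± 0.13 and Cdkn2c at 0.25 ± 0.062 among 6 CDK inhibitors and of Rbbp4 at 0.17 ± 0.033 and Mybl2 at 0.27 ± 0.07 among 7 transcription genes passed in PBMC, and that of Cdkn1b at 0.16 ± 0.046 among 7 CDK inhibitors in platelets. The adjusted P of these slopes was 2.26e-07 to 0.0396 in PBMC and 2.52e-08 to 0.0483 in platelets, and 0 listed genes had a negative slope. Without O1 (all genes 1.45% in PBMC and 1.34% in platelets), 1 of 52 other mitotic genes, 1 of 20 G1 genes and 2 of 17 APC/C genes had a positive slope in PBMC, and 2 of 49, 1 of 20 and 1 of 17 in platelets, where 0 of 35 replication genes had one.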

How the data were processed

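RNA of pooled platelets and PBMC was sequenced by the authors as poly-A selected libraries with the NEBNext Ultra kit (whether strand was kept is not given in the sources used here), aligned with HISAT2 2.0.5 and counted per gene with featureCounts 1.5.0-p3. The deposited tables hold raw counts per Ensembl gene, 1 table a tissue, and the authors tested them with DESeq2 1.16.1. The processing notes name mm9 and the methods no build, so positions here are those of GRCm38 annotation. Gene symbols were matched by Ensembl identifier, and overlapping or antisense genes could not be told apart. The platelet samples' cell type tag reads PBMC, and their tissue was taken from titles.

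Counts were tested with edgeR 4.0.16 (R 4.3.3), filterByExpr with a minimum count of 10, TMM factors and the quasi-likelihood test, fitted on the whole table with Benjamini-Hochberg adjustment. The fits were tested on simulated data. SE values are those of the fitted log2 fold changes. The erythroid score used a pseudocount of 1. Total-count scaling, the erythroid score and fits without O1 and O4 together or without both O1 libraries, with their counts of lists and markers, were chosen after seeing the data. The members and lists were chosen with earlier results of these data known. The rule for named genes was all 40 members, 8 of them with every library, the 5 members with the smallest P that passed in each comparison, and the 3 genes with the smallest P that passed in each other list and comparison. Values of every library for Tyms, Rrm2, Nuf2, Ube2c, Nusap1, Mad2l1 and Cdkn1a were added.

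Libraries held 12259036 to 25360080 counts, and precision is limited by the 5 pools per group. In PBMC, same-numbered libraries deviated together between S and C groups (r 0.269 to 0.559 over the 5 pairs) and between S and O groups (0.109 to 0.389), so blocked values are given for these comparisons. The labels do not say that same-numbered platelet and PBMC pools hold the same mice.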

Additional observations from a re-analysis of the deposited data

Results flagged for a closer look

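Of 66 groups of 5 libraries looked at, 12 held a library far from the other 4 by Dixon's criterion. Ube2c and Nusap1 were looked at besides the summed level and the 8 genes given with every library, and both were flagged. The number flagged is therefore a description and is not set against a rate of chance. In platelets O1 stood apart in the summed level of the mitotic genes (2040 CPM) and in Mki67 (697 CPM), Top2a (28.1 CPM), Ccna2 (24.3 CPM), Ccnb1 (24.1 CPM), Ccnb2 (95.9 CPM), Birc5 (16.8 CPM), Ube2c (496 CPM) and Nusap1 (179 CPM). In PBMC O1 stood apart in Mki67 (961 CPM) and Ccnb1 (8.01 CPM). The only one outside O group was C3 of PBMC for Nusap1 (10.9 CPM). These genes are not independent, since the same library is flagged.

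The response to tumor cells differed between tissues at an unadjusted P under 0.05 for the following genes, with the log2 fold change in platelets minus that in PBMC in parentheses. For S group against C group they were Ncaph (-1.12) and Aurka (-0.74). For S group against O group they were Mad2l1 (-1.06), Top2a (-1.49), Bub1 (-3.12), Kif2c (-2.53), Ndc80 (-1.08), Nuf2 (-2.17), Cenpe (-1.71), Cdc20 (-1.13), Kif11 (-1.71), Pbk (-2.50), Kif20a (-1.30), Plk1 (-1.32), Ncaph (-0.96), Bub1b (-0.78), Kif23 (-0.91), Aurkb (-0.57) and Ttk (-1.87). For O group against C group they were Nusap1 (-3.17), Top2a (1.11), Ube2c (-2.71) and Mad2l1 (0.59). Among the named genes of the other cell cycle lists they were Gins2 (-1.07), Kif18a (-1.17), Smc4 (-0.49), Cdkn1a (1.81) and Anapc4 (-0.40) for S group against C group, Gins2 (-2.22), Mcm3 (-0.77), Pole (-1.01), Cdc25a (-0.71), Rb1 (-0.74), Rbl2 (-0.58), Mybl2 (-1.60), Lin54 (-0.46), Dlgap5 (-1.46), Kif18a (-1.54), Stmn1 (-0.85), Cdkn1a (1.94), Anapc1 (-0.43), Anapc4 (-0.42) and Anapc5 (-0.67) for S group against O group and Pole (1.00), Mcm5 (0.64), Mcm2 (0.68), E2f8 (1.76), Cdc25a (0.67), Ccnd2 (0.60), Kifc1 (1.05), Nek2 (1.04), Pttg1 (-1.56) and Anapc5 (0.63) for O group against C group. No adjusted P of these was under 0.05 by edgeR, and no explanation was weighed.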

How the results depend on the processing

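The numbers of mitotic genes that passed were 3 for PBMC S against C group, 10 for PBMC S against O group, 10 for PBMC O against C group, 3 for platelet S against C group, 18 for platelet S against O group, 6 for platelet O against C group, 31 for platelets against PBMC, 2 for the tissue difference of S against C group, 17 for the tissue difference of S against O group, 4 for the tissue difference of O against C group, 14 for the PBMC erythroid slope and 16 for the platelet erythroid slope. They moved by more than 1.5 times in the following cases. The ranges over single libraries left out in turn are instead given for every comparison of groups, tissues and responses, also where no such move occurred. With all genes with at least 1 count, the number was 0 for PBMC S against C group, 10 for platelet O against C group and 1 for the tissue difference of S against C group. With RLE size factors, the number was 1 for PBMC S against C group and 1 for the tissue difference of S against C group. With total counts, the number was 0 for PBMC S against C group, 0 for platelet S against C group, 0 for the tissue difference of S against C group and 13 for the tissue difference of O against C group. With the replicate block, the number was 0 for PBMC S against C group, 2 for PBMC S against O group, 5 for PBMC O against C group, 1 for platelet S against C group, 10 for platelet S against O group, 0 for platelet O against C group and 4 for the tissue difference of S against C group. With DESeq2, the number was 1 for PBMC S against C group and 2 for platelet O against C group. With all 3 groups in 1 fit, the number was 0 for PBMC S against C group and 11 for platelet O against C group. With limma voom with sample weights, the number was 4 for PBMC S against O group, 12 for platelet S against C group, 7 for platelet S against O group and 0 for platelet O against C group. With PBMC O1 and O4 left out, the number was 6 for PBMC S against O group and 5 for PBMC O against C group. With platelet O1 left out, the number was 9 for platelet S against O group, 1 for platelet O against C group and 10 for the tissue difference of O against C group. With both O1 libraries left out, the number was 9 for the tissue difference of S against O group. With O1 left out, the number was 2 for the PBMC erythroid slope and 2 for the platelet erythroid slope. With PBMC O1 and O4 left out, the number was 2 for the PBMC erythroid slope. With each single library left out in turn, the number ranged from 0 to 2 for PBMC S against C group, from 4 to 10 for PBMC S against O group, from 4 to 13 for PBMC O against C group, from 27 to 35 for platelets against PBMC, from 0 to 6 for platelet S against C group, from 9 to 24 for platelet S against O group, from 1 to 9 for platelet O against C group, from 1 to 4 for the tissue difference of S against C group, from 9 to 23 for the tissue difference of S against O group and from 4 to 11 for the tissue difference of O against C group. Of these, platelet S3 gave the lowest number for the tissue difference of S against O group. The direction turned for these log2 fold changes. With limma voom with sample weights, values for PBMC S against O group were Ccna2 0.049. With limma voom with sample weights, values for PBMC O against C group were Ccna2 -0.018. With limma voom with sample weights, values for platelet O against C group were Cdca3 -0.16. With PBMC O1 and O4 left out, values for PBMC S against O group were Rrm2 0.30, Cdca3 0.014, Tyms 0.21, Tpx2 0.15, Ccna2 0.40 and Ccnb2 0.33. With PBMC O1 and O4 left out, values for PBMC O against C group were Rrm2 -0.21, Cdca3 -0.036, Tpx2 -0.26, Ccna2 -0.38 and Ccnb2 -0.35. With platelet O1 left out, values for platelet O against C group were Cdca3 -0.066. With total counts, values for platelets against PBMC were Cdc20 -0.16, Kif11 -0.45, Ncapg -0.57, Birc5 -0.40, Cdk1 -0.34, Hmmr -0.26, Rrm2 -0.19, Top2a -0.58, Bub1 -0.32, Tpx2 -0.057, Aurka -0.49, Kif2c -0.26, Mad2l1 -0.34, Plk1 -0.53, Ccnb2 -0.19, Ncaph -0.53 and Bub1b -0.60. With PBMC O1 and O4 left out, values for the PBMC erythroid slope were Rrm2 -0.10, Ccna2 -0.12, Ccnb2 -0.14 and Ccnb1 -0.31. With O1 left out, values for the platelet erythroid slope were Cdca3 -0.055, Tyms -0.022, Ccnb1 -0.14 and Cenpe -0.051. For Cdca3 in platelet O against C group, leaving out each library in turn gave -0.066 to 2.38. The causes were not tested. Besides PBMC S against C and S against O group, not every pair of same-numbered libraries had a correlation over 0.1, so the block was not taken as a pairing. Correlations of same-numbered libraries were 0.0405 to 0.419 in PBMC O against C group, -0.207 to 0.16, -0.223 to 0.189 and -0.072 to 0.483 in platelet S against C, S against O and O against C group, and -0.165 to 0.217, -0.0927 to 0.245 and 0.0604 to 0.658 between PBMC and platelets of C, S and O groups. The replicate block gave 32 genes for platelets against PBMC, 16 for the tissue difference of S against O group and 5 for that of O against C group. Of these, 30, 11 and 4 were also among the genes that passed without the block. The share of all genes in these 3 block fits is not given. Depth limits the scarcest genes, and Ttk, Pbk, Nuf2, Hmmr, Bub1 and Kif2c had only a few counts in several libraries.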
